A study of Mus musculus with 6 samples.

Results

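The genes described here are 36 integrin chains, selectin-system molecules, immunoglobulin-type adhesion molecules and talin, kindlin and focal adhesion adaptors, taken by symbol from a list of adhesion genes. All 36 were found among the 37043 gene symbols of the count table, and 34 of them had enough reads to be tested among 16675 genes. They were measured by bulk RNA-seq in bone marrow-derived basophils (BMBAs), primary mouse basophils grown from bone marrow of C57BL/6J WT mice. Bone marrow cells were kept for 7 days with a culture cytokine at 0.3 ng/mL, which the study's methods name as IL-3, and cells bound by an anti-CD49b antibody were pulled out with beads. Both groups share this history. One group then received PBS as the control and the other 10 ng/mL IL-3, a growth and activation cytokine of basophils, for 6 h, with 3 libraries in each group. The comparison asks which transcripts differ after the 6 h exposure to IL-3. Whether IL-3 from the culture stayed in the PBS medium is not given. A rise or fall with IL-3 is therefore a difference from PBS cells that had also been grown with the culture cytokine.

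Integrins are receptors made of 1 alpha and 1 beta chain that bind extracellular matrix or ligands on other cells, and talin and kindlin adaptors bind the beta chain tails and switch the receptors to a binding state. Selectins capture flowing leukocytes through sugar-modified ligands such as PSGL-1, and immunoglobulin-type molecules such as ICAM-1 and PECAM-1 serve as counter-receptors and as contacts between cells. On basophils this system is known for letting the cells leave the blood and enter inflamed tissue, and the alpha2 integrin chain, CD49b, is a surface marker by which mouse basophils are commonly gated.

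Totals per library ran from 10537540 to 13999287 counts, and the adhesion genes together took 0.435% to 0.473% of them. The lowest level that could be told from an empty count, 3 counts, was 0.233 to 0.296 CPM, read counts scaled to a common library size. Basophil transcripts were abundant in every library: the summed level of the 6 basophil markers was 10142 to 11317 CPM in PBS and 15149 to 15338 CPM in IL-3, with 4 markers higher and 1 lower. Transcripts of other cells were present too. The summed level of 9 monocyte and macrophage markers was 11645 to 12573 CPM in PBS and 6111 to 6727 CPM in IL-3, with 6 markers lower and 2 higher, among them Lyz2, the lysozyme of myeloid cells, which was lower. The 8 megakaryocyte and platelet markers summed to 870.0, 1519 and 925 CPM in PBS and to 364, 411 and 887 CPM in IL-3, so that PBS replicate 2 and IL-3 replicate 3 stood above the other libraries of their groups. The 7 natural killer (NK) and T cell markers summed to 2.45 to 5.26 CPM in PBS and 2.27 to 3.18 CPM in IL-3, with Gzma at 0 in every library, and 1 of the 7 could be tested. The 6 mast cell markers summed to 840.4 to 945 CPM in PBS and 1437 to 1571 CPM in IL-3, with 4 higher, and the 6 endothelial and stromal markers to 2.995 to 12.7 CPM and 1.09 to 1.92 CPM. The 6 neutrophil markers summed to 34.1 to 64.9 CPM in PBS and to 102 to 157 CPM in IL-3, with 2 of the 4 testable markers higher (Retnlg and Ly6g), 0 lower and a median log2 fold change of 1.79. Itgb2, Itgal, Itgam, Selplg and Pecam1 are known from neutrophils as well, and the part of such cells in their values was not tested. In bulk libraries a change in the number of cells of a type and a change in the RNA each cell holds cannot be told apart.

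With IL-3, 7 of the 34 tested adhesion genes were higher (20.6%, against 18.0% of all tested genes called higher), 11 were lower (32.4%, against 20.2% called lower) and 16 did not pass the test, edgeR's quasi-likelihood test with Benjamini-Hochberg adjustment over all tested genes. The higher genes were Cd47, Itgb1, Itga2, Tln1, Selplg, Itgb3 and Pecam1. The lower genes were Itgae, Itga9, Itgb5, Selp, Itga4, Alcam, Itga6, Vcl, Itga5, Itgam and Cd44. Of the called genes, 4 fell more than 2-fold (Itgae, Itga9, Itgb5 and Selp), against 5.68% of all tested genes, and 0 rose that much, against 3.90%, the largest rise being that of Cd47. Tested against a fold of 1.5, Cd47 alone was higher (4.25% of all genes were) and 5 genes were lower, Itga4, Itga9, Itgae, Itgb5 and Alcam (5.30% of all genes). The median log2 fold change was -0.15 for the adhesion genes and -0.0033 for all genes tested. All IL-3 libraries lay on one side of all PBS libraries in 20 of the 34 genes (58.8%, against 48.2% of all genes). This split between rises and falls depended on the scaling, since library totals without trimmed-mean (TMM) factors gave 5 higher and 21 lower, against 10.2% and 30.2% of all genes, with the median of all genes itself moved by -0.16. The 2 genes with too few reads to test were Itga3, with 5, 0 and 0 counts in PBS and 0, 0 and 1 in IL-3, and Jam3, with 5, 4 and 3 counts in PBS and 4, 2 and 7 in IL-3.

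**Figure D1:**
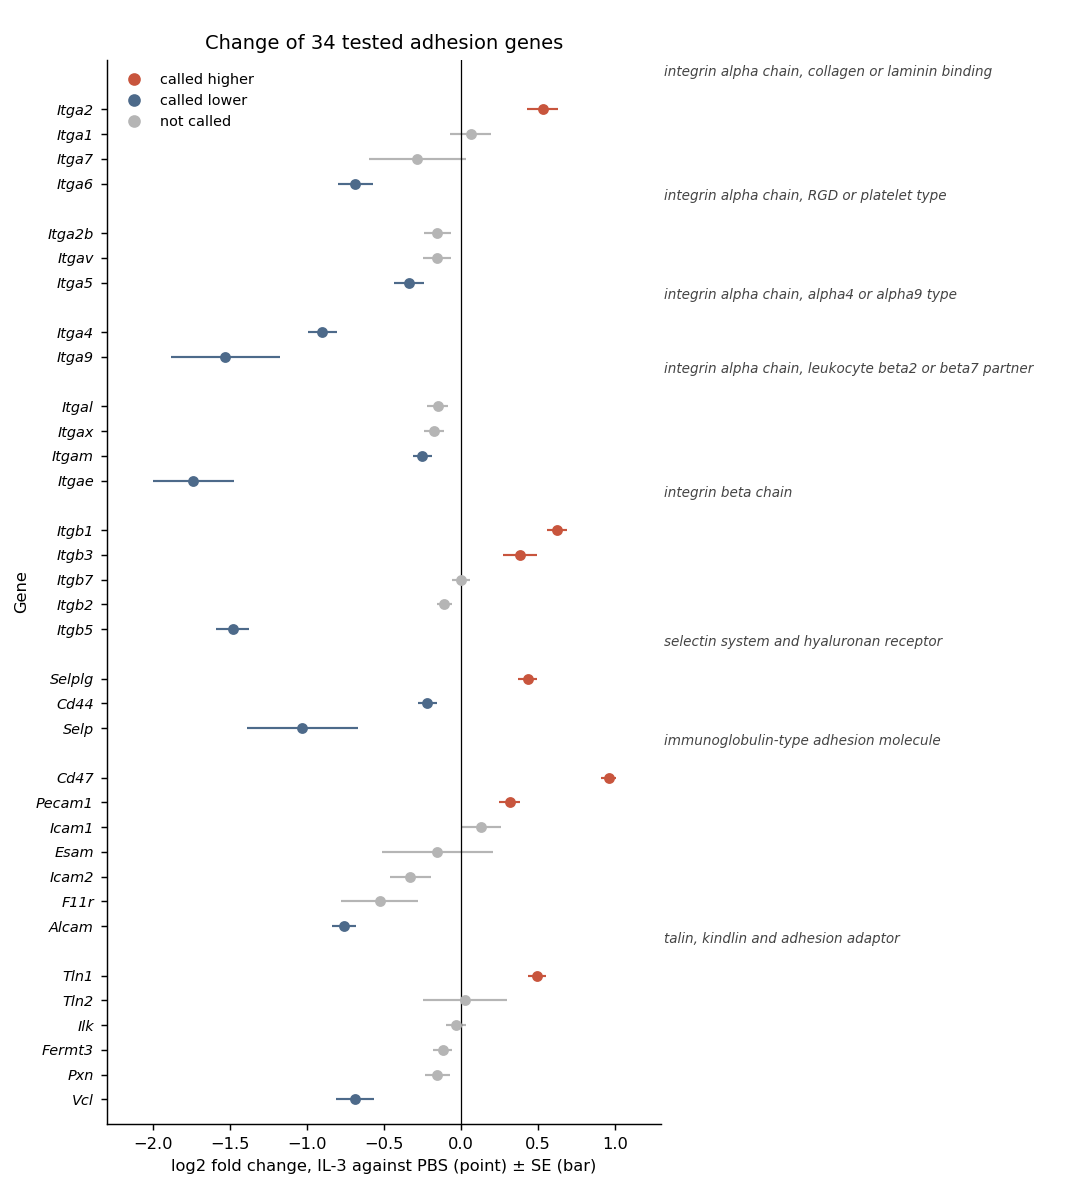
Points give the log2 fold change of IL-3 against PBS for the 34 tested adhesion genes, with bars for the SE, grouped by role named at the right and coloured by the edgeR call. Points run from -1.74 (Itgae) to 0.96 (Cd47), and the alpha4 and alpha9 chains and Itgb5 lie well left of 0 while Itgb1 and Itga2 lie right of it.

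The promoter windows of 3 genes are shown because they stand for the gene that rose most (Cd47), for the beta chain that fell most (Itgb5) and for the only matched adhesion gene whose window held the palindrome that STAT factors, the signal carriers of the IL-3 receptor, are known to bind (Icam1). Each holds the 250 bases before the transcript start in GRCm38.p6, from RefSeq, in which 23 of the 36 genes were matched, with 26 windows, and the Cd47 sequence is 1 of its 2 windows. Capitals mark GGGCGG, the SP1 core motif, on either strand in the first and second sequence, and TTCNNNGAA in the third.
Cd47, chr16:49855404-49855653, plus strand: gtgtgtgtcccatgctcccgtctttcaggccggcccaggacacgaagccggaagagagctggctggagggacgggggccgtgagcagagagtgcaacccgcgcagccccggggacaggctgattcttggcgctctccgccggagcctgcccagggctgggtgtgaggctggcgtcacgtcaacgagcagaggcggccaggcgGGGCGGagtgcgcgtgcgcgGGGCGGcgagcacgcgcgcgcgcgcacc
Itgb5, chr16:33829415-33829664, plus strand: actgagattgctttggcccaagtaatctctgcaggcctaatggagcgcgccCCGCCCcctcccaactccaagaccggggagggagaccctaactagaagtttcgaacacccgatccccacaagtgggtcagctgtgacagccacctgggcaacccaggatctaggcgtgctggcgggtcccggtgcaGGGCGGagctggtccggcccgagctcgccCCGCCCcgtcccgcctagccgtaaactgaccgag
Icam1, chr9:21015690-21015939, plus strand: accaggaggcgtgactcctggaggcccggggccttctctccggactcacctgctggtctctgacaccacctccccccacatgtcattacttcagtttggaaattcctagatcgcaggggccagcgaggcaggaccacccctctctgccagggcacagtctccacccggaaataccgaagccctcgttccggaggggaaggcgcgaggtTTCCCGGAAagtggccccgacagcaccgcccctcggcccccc
The SP1 core stood in 14 of the 26 adhesion windows and in 32.7% of all 32851 windows of this length. The Cd47 window held 2 copies and the Itgb5 window 3, so a gene that rose and one that fell both carried it. The STAT palindrome stood in 1 of the 26 windows and in 7.02% of all windows, in Icam1 ending 33 bases before the start, and these motifs were chosen after the expression results had been seen.

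Among the beta chains, which fix the family an integrin belongs to, 2 rose, 1 fell and 2 did not pass the test. Itgb1, the shared partner of the collagen, laminin and fibronectin binding alpha chains, was at 168, 188 and 171 CPM in PBS and at 252, 270.4 and 292 CPM in IL-3. All IL-3 libraries lay above all PBS libraries, a log2 fold change of 0.63 (SE 0.0649, adjusted p = 1.24e-06 by edgeR). Itgb5, a partner of the alphaV chain in vitronectin receptors, was at 30.7, 32.6 and 35.2 CPM in PBS and at 11.9, 11.8 and 11.6 CPM in IL-3. The IL-3 libraries were nearly equal to each other and all far below PBS, a log2 fold change of -1.48 (SE 0.106, adjusted p = 1.59e-08). Of the 50-base words of Itgb5 transcripts, 7.25% also occur in other genes, mainly Gm38317. Itgb3, the beta chain of the platelet fibrinogen receptor, was at 297, 429 and 317 CPM in PBS and at 460, 398 and 506 CPM in IL-3. The groups overlapped, since PBS replicate 2 was above IL-3 replicate 2. Its log2 fold change was 0.39 (SE 0.109, adjusted p = 0.0106). The call was lost by DESeq2 (adjusted p = 0.119), with library totals (0.113) and on leaving out PBS replicate 1 (0.0609), PBS replicate 3 (0.0534) or IL-3 replicate 3 (0.0502).

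The remaining beta chains belong to leukocytes. Itgb2, the CD18 chain of the leukocyte beta2 integrins, was at 471, 443 and 458 CPM in PBS and at 440, 417 and 419.5 CPM in IL-3. The IL-3 libraries were all lower, but by little, and the difference did not pass the test (log2 fold change -0.11, SE 0.0489, adjusted p = 0.103 by edgeR). Itgb7, which pairs with alpha4 and alphaE, was at 264, 264 and 291 CPM in PBS and at 276, 287 and 259 CPM in IL-3. These ranges overlapped almost fully (log2 fold change 0.0035, SE 0.0585, adjusted p = 0.971). Of 8 integrin chains outside the 36, only Itgad had enough reads to test, at 3.60 ± 0.568 CPM with PBS and 2.60 ± 0.505 CPM with IL-3 (SD, n = 3), and did not pass (edgeR adjusted p = 0.158).

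Of the 4 tested alpha chains that bind collagen or laminin, 1 rose and 1 fell. Itga2 encodes CD49b, the antigen used to enrich the cells before either treatment, and pairs with beta1 as a collagen receptor. It was at 22.7, 21.8 and 25.5 CPM in PBS and at 31.2, 32.5 and 37.2 CPM in IL-3. Every IL-3 library was above every PBS library, a rise of 1.45-fold (log2 fold change 0.53, SE 0.102, adjusted p = 0.000611 by edgeR). CD49b is known from NK cells and platelets as well, whose marker sums in both groups are given above. Itga6, the laminin receptor chain, was at 86.9, 82.2 and 72.9 CPM in PBS and at 38.3, 53.7 and 57.7 CPM in IL-3. Both groups were spread, with IL-3 replicate 1 lowest, but did not overlap (log2 fold change -0.69, SE 0.114, adjusted p = 0.000173). Itga1, the other collagen receptor chain, ranged from 10.2 to 12.8 CPM in PBS and from 12.1 to 12.9 CPM in IL-3 (adjusted p = 0.754). Itga7, the muscle laminin receptor chain, was under 2 CPM in each library and did not pass the test (adjusted p = 0.525).

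Both alpha chains of the alpha4 and alpha9 type fell. Itga4, whose product binds VCAM-1 with beta1 and the gut addressin MAdCAM-1 with beta7, was at 46.9, 42.8 and 41.6 CPM in PBS and at 22.9, 26.0 and 21.6 CPM in IL-3. The lowest PBS library was well above the highest IL-3 library, a fall of 1.86-fold (log2 fold change -0.90, SE 0.0949, adjusted p = 1.59e-06 by edgeR). Exons of Cerkl overlap those of Itga4 on the opposite strand, and the sources used here do not give whether counting used strand. Itga9, a receptor chain for tenascin and osteopontin, rested on few reads, with 33, 18 and 25 counts in PBS and 8, 11 and 7 counts in IL-3. On the CPM scale the groups stayed apart, at 2.70, 1.58 and 2.20 in PBS and 0.790, 0.916 and 0.543 in IL-3 (log2 fold change -1.53, SE 0.354, adjusted p = 0.00280).

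The 4 alpha chains that pair with the leukocyte beta2 or beta7 chains gave 2 falls of very different size. Itgae, the CD103 chain that binds E-cadherin on epithelium, had the largest fall of the 34 tested genes: its counts were 69, 68 and 68 in PBS and 10, 21 and 31 in IL-3. In CPM this was 5.65, 5.96 and 5.99 against 0.987, 1.75 and 2.404. The PBS libraries were nearly equal and the IL-3 libraries spread below them, a fall of 3.33-fold (log2 fold change -1.74, SE 0.263, adjusted p = 6.98e-05 by edgeR). CD103 is known from T cells and a subset of dendritic cells, and among the T cell genes Cd3e was at most 0.881 CPM in any library and Cd3g, the one testable gene of the NK and T cell list, was highest in PBS replicate 2 at 3.16 CPM and at most 1.28 CPM in the other libraries (log2 fold change -0.56, SE 0.577, adjusted p = 0.492 by edgeR). The 6 dendritic cell markers summed to 10.96 to 13.2 CPM in PBS and 7.33 to 8.77 CPM in IL-3, with Clec9a lower, Cd209a at 0 in every library and 5 of 6 testable, and the part of T cells or dendritic cells in the fall of Itgae was not tested. Itgam, the CD11b chain of the complement receptor Mac-1, was at 131, 128 and 117 CPM in PBS and at 106, 101 and 109 CPM in IL-3. The IL-3 libraries were all lower, but the fall was small (log2 fold change -0.25, SE 0.0627, adjusted p = 0.00500). Since 66.3% of its 50-base words are shared with Gm49368, a gene model overlapping it on the same strand, the value for Itgam is uncertain. Itgal, the LFA-1 alpha chain, overlapped between groups (log2 fold change -0.15, SE 0.0682, adjusted p = 0.102) and was called lower only without PBS replicate 2 among the libraries left out (adjusted p = 0.0307). Itgax, the CD11c chain, was lower in all IL-3 libraries and just missed the threshold (log2 fold change -0.17, SE 0.0671, adjusted p = 0.0531).

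Among the alpha chains that recognize RGD peptides in matrix or fibrinogen, 1 of 3 fell. Itga5, the fibronectin receptor chain, was at 28.1, 28.4 and 26.6 CPM in PBS and at 20.7, 22.2 and 22.9 CPM in IL-3. Each IL-3 library was below each PBS library (log2 fold change -0.33, SE 0.0958, adjusted p = 0.0114 by edgeR). Itgav was at 30.4, 29.0 and 32.0 CPM in PBS and at 28.9, 27.1 and 26.4 CPM in IL-3. The groups were separate but close, and the difference did not pass (adjusted p = 0.208). Itga2b, the CD41 chain of the platelet fibrinogen receptor, was at 300.4, 383 and 338 CPM in PBS and at 274, 295 and 350.2 CPM in IL-3. Its groups overlapped through IL-3 replicate 3, a platelet-rich library. Without that library the gene was called lower (log2 fold change -0.26, adjusted p = 0.0240, against -0.15 and 0.201 with all libraries). Leaving out PBS replicate 2 instead, the platelet-rich library of the other group, gave -0.06 (edgeR adjusted p = 0.663).

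**Figure D2:**
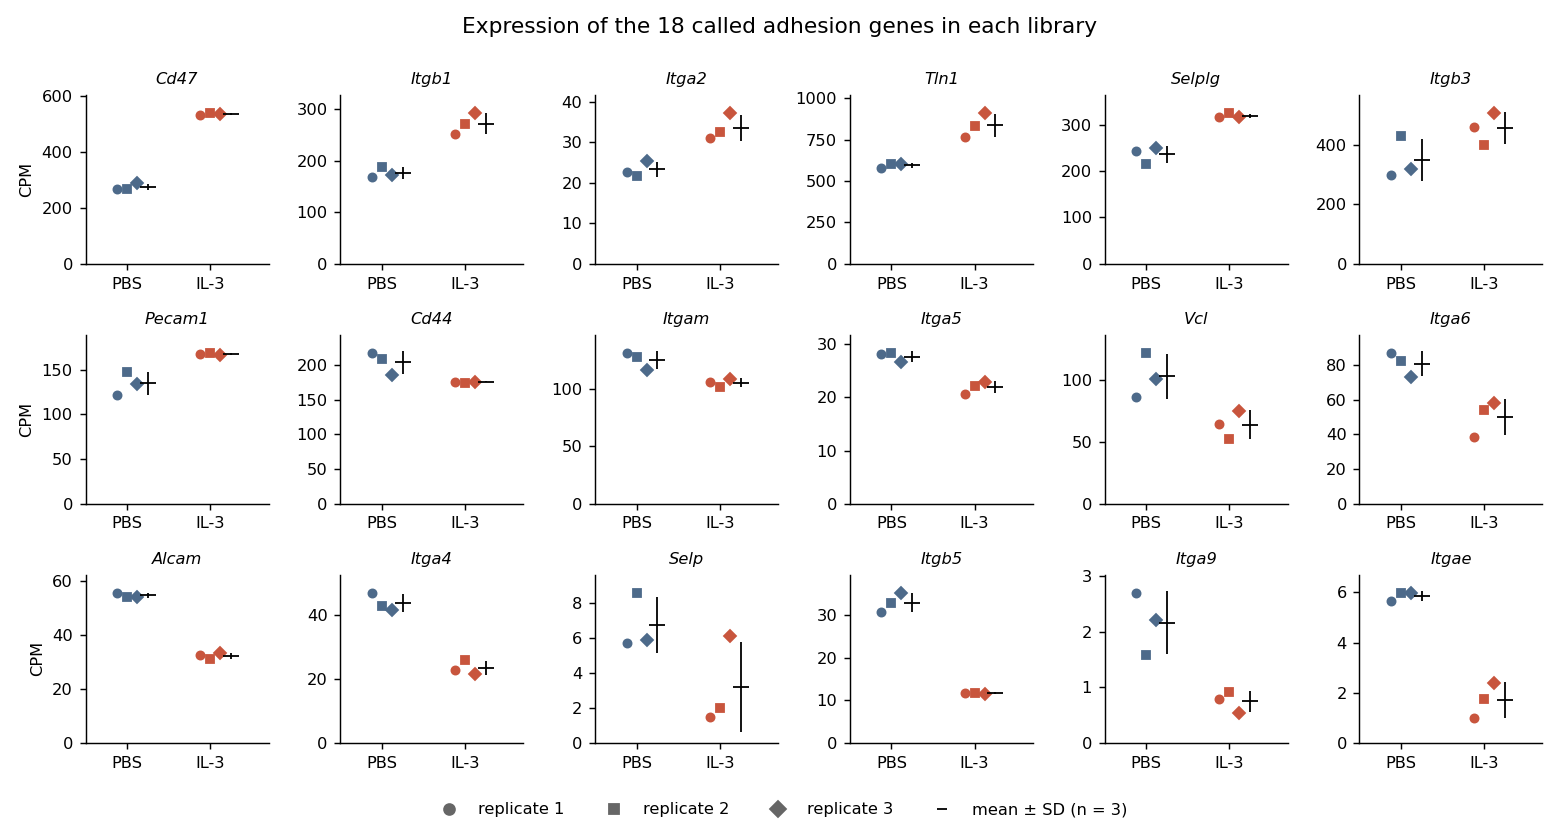
Each panel shows one of the 18 called adhesion genes in CPM from 0, with symbols for the 3 PBS (blue) and 3 IL-3 (red) libraries and a black mark for mean ± SD (n = 3). Panels run from the largest rise, Cd47, to the largest fall, Itgae, and the groups overlap in the panels of Itgb3 and Selp alone.

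Because integrins work as pairs, the alpha transcript was set against its beta partner in each library, both as CPM per kilobase of the longest coding transcript. These ratios describe transcripts, not surface receptors, and were not tested. Division by length takes reads to be spread evenly along a transcript, which was not checked, so their absolute size is uncertain. The Itga4 to Itgb1 ratio was 0.109, 0.0888 and 0.0948 in PBS and 0.0355, 0.0375 and 0.0288 in IL-3, since the alpha chain fell while the beta chain rose. The Itga6 to Itgb1 ratio was 0.407 ± 0.0449 in PBS and 0.162 ± 0.0235 in IL-3, and the Itga5 to Itgb1 ratio 0.138 ± 0.00771 and 0.0705 ± 0.00197 (mean ± SD, n = 3). Only the collagen receptor pair among the beta1 partners shown stayed close, with Itga2 to Itgb1 at 0.0715 ± 0.00882 in PBS and 0.0665 ± 0.00199 in IL-3 and overlapping libraries. The Itga4 to Itgb7 ratio was 0.0442 ± 0.00481 in PBS and 0.0235 ± 0.00119 in IL-3, and the Itgae to Itgb7 ratio was 0.0150 ± 0.000698 and 0.00441 ± 0.0020. For the vitronectin receptor pair Itgav and Itgb5 the order was the opposite, with 0.433 ± 0.0252 in PBS and 1.09 ± 0.0420 in IL-3, and of the 2 chains only Itgb5 passed the test on its own. With its other partner, the Itgav to Itgb3 ratio was 0.0740 ± 0.0161 in PBS and 0.050 ± 0.00662 in IL-3, with overlapping libraries. The beta2 pairs were close between groups, as Itgal to Itgb2 was 0.140 ± 0.0116 in PBS and 0.136 ± 0.00623 in IL-3. Itga2b to Itgb3 was 1.66 ± 0.148 in PBS and 1.14 ± 0.124 in IL-3.

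**Figure D3:**
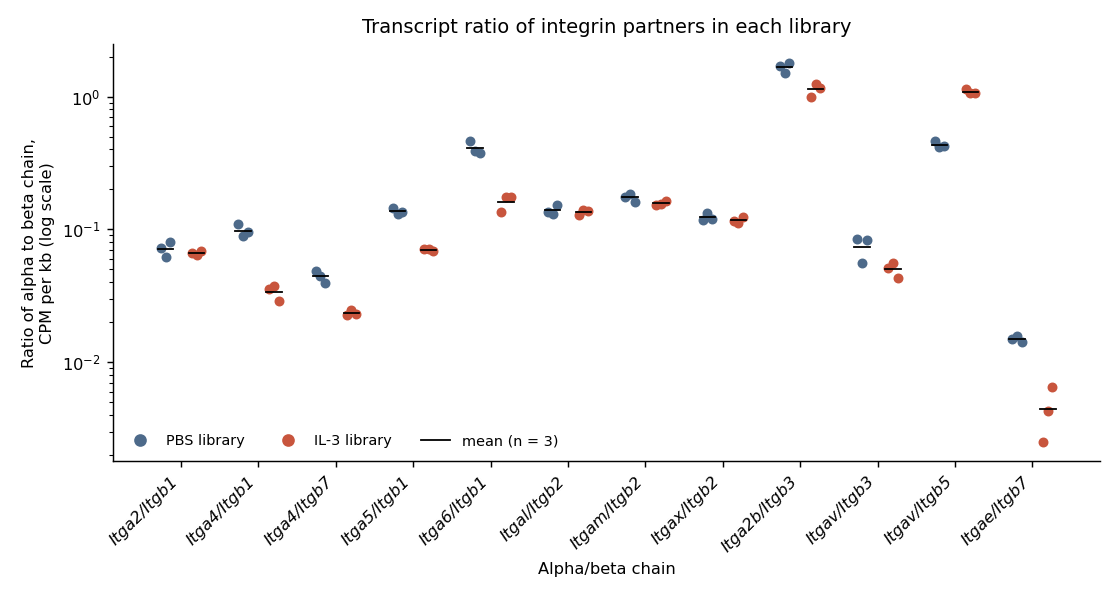
The log-scale axis gives the ratio of alpha to beta chain transcript, both in CPM per kilobase, for 12 integrin pairs, with 1 point per library (PBS blue, IL-3 red) and a line at the mean of 3. The IL-3 points lie below the PBS points for Itga4, Itga5 and Itga6 over Itgb1, above them for Itgav over Itgb5, and overlap them for Itga2 over Itgb1 and Itgal over Itgb2.

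In the selectin system, 1 of 3 genes rose and 2 fell. Selplg, which encodes the selectin ligand PSGL-1, was at 244, 215 and 249 CPM in PBS and at 316, 325 and 315 CPM in IL-3. All IL-3 libraries were higher and nearly equal (log2 fold change 0.43, SE 0.0591, adjusted p = 2.40e-05 by edgeR). Cd44, the hyaluronan receptor, was at 218, 209.5 and 186 CPM in PBS and at 176, 175 and 176 CPM in IL-3. It was lower in each IL-3 library but by little (log2 fold change -0.22, SE 0.0622, adjusted p = 0.0115), and the call was lost without PBS replicate 1 (adjusted p = 0.0641). Selp, P-selectin of platelet and endothelial granules, was at 5.73, 8.59 and 5.90 CPM in PBS and at 1.48, 1.999 and 6.13 CPM in IL-3. IL-3 replicate 3 reached the PBS range, so the groups overlapped, and the fall was 2.04-fold (log2 fold change -1.03, SE 0.363, adjusted p = 0.0353). Without IL-3 replicate 3 the log2 fold change was -1.93 (adjusted p = 7.32e-05). The call was lost by DESeq2 (adjusted p = 0.206) and on leaving out PBS replicate 2 (0.143), IL-3 replicate 1 (0.126) or IL-3 replicate 2 (0.140).

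Of 10 genes of selectin ligand synthesis, 5 were higher, 1 was lower and 4 did not pass, against 18.0% of all tested genes higher and 20.2% lower. Their median log2 fold change was 0.21. St3gal4, a sialyltransferase of selectin ligand synthesis, was at 66.5, 81.4 and 72.7 CPM in PBS and at 467, 443 and 442.5 CPM in IL-3, a log2 fold change of 2.62 (SE 0.0691, adjusted p = 7.01e-14 by edgeR). That rise exceeded the change of each of the 34 tested adhesion genes. Gcnt1, which starts the core 2 branch on PSGL-1, rose from 171 ± 12.3 to 353 ± 17.4 CPM (SD, n = 3, edgeR adjusted p = 1.47e-09). Fut4 rose by a log2 fold change of 0.52 (adjusted p = 0.00981), whereas Fut7, the main leukocyte fucosyltransferase for these ligands, stood at 30.5 ± 3.31 CPM with PBS and 29.4 ± 1.498 CPM with IL-3 and did not pass (edgeR adjusted p = 0.729). C1galt1c1, the chaperone of the core 1 enzyme, rose by 0.36 on the log2 scale (adjusted p = 0.00537). The enzyme that fell, St3gal6, was at 2.79 ± 0.412 CPM in PBS (edgeR adjusted p = 0.0230).

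Among the 7 tested immunoglobulin-type molecules, 2 rose, 1 fell and 4 did not pass. Cd47, the ligand of the inhibitory receptor SIRP-alpha that signals against engulfment, was at 268, 269 and 288 CPM in PBS and at 531, 537 and 536 CPM in IL-3. The IL-3 libraries were nearly equal and all about 1.95-fold above PBS (log2 fold change 0.96, SE 0.0497, adjusted p = 2.87e-10 by edgeR), the largest rise of the 34 tested genes. Pecam1, a homophilic molecule of leukocytes, platelets and endothelium, was at 122, 148 and 134 CPM in PBS and at 168, 169 and 167 CPM in IL-3. All IL-3 libraries were above all PBS libraries (log2 fold change 0.32, SE 0.0664, adjusted p = 0.00126), but with library totals the call was lost (adjusted p = 0.0943). Alcam, the CD166 molecule that binds CD6 and itself, was at 55.6, 54.1 and 54.1 CPM in PBS and at 32.4, 31.2 and 33.3 CPM in IL-3. Both groups were tight and far apart (log2 fold change -0.76, SE 0.0752, adjusted p = 7.76e-07).

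Icam1 and Icam2, which encode ligands of LFA-1, did not pass the test. Icam1 was at 17.8, 16.9 and 14.2 CPM in PBS and at 18.2, 19.8 and 15.6 CPM in IL-3, with overlapping groups (log2 fold change 0.13, SE 0.130, adjusted p = 0.477 by edgeR). Icam2 was lower in all IL-3 libraries without passing the test (log2 fold change -0.33, SE 0.133, adjusted p = 0.0650). F11r, the junction molecule JAM-A, was at 9.74, 14.5 and 10.0 CPM in PBS and at 6.02, 5.33 and 12.1 CPM in IL-3. Its groups overlapped through IL-3 replicate 3 (log2 fold change -0.53, SE 0.252, adjusted p = 0.116), and without that library the gene was called lower (-1.01, adjusted p = 0.00144). Without PBS replicate 2 instead, F11r was not called (-0.32, edgeR adjusted p = 0.408). Esam, a junction molecule of endothelium and platelets, was at 4.09, 7.28 and 4.40 CPM in PBS and at 2.57, 2.92 and 8.38 CPM in IL-3. The highest library of all was IL-3 replicate 3 and the lowest was IL-3 replicate 1. The difference did not pass (adjusted p = 0.781), whereas without IL-3 replicate 3 it did (log2 fold change -0.93, adjusted p = 0.0245). With PBS replicate 2 left out instead, the log2 fold change of Esam was 0.15 (edgeR adjusted p = 0.817).

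F11r and Esam shared a pattern with the platelet markers. PBS replicate 2 and IL-3 replicate 3 were the highest library of their groups in all 8 platelet markers. These libraries were picked out by the summed level of the same 8 markers, so that count was largely set by the choice. They were also the highest in 11 of the 34 tested adhesion genes (32.4%) and in 1959 of all 16675 genes (11.7%). The 11 were Esam, F11r, Fermt3, Itga1, Itga2b, Itga5, Itgax, Itgb1, Itgb3, Selp and Vcl. Of the 8 markers, Pf4, Ppbp and Gp1ba were lower in IL-3 and 5 did not pass. Without those 2 libraries, an alternative added after the data had been seen, 7 adhesion genes were higher and 11 lower, against 14.1% and 16.2% of all genes in that fit. The log2 fold change of Selp was then -1.72 (edgeR adjusted p = 0.000381), that of Vcl -0.68 (0.000122) and that of Itgb3 0.48 (0.000124). F11r was called lower (log2 fold change -0.80, adjusted p = 0.00721) and the call of Cd44 was lost (adjusted p = 0.0775). Esam and Itga2b still did not pass (adjusted p = 0.122 and 0.110). The part of platelets in the fall of Selp was not tested.

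**Figure D4:**
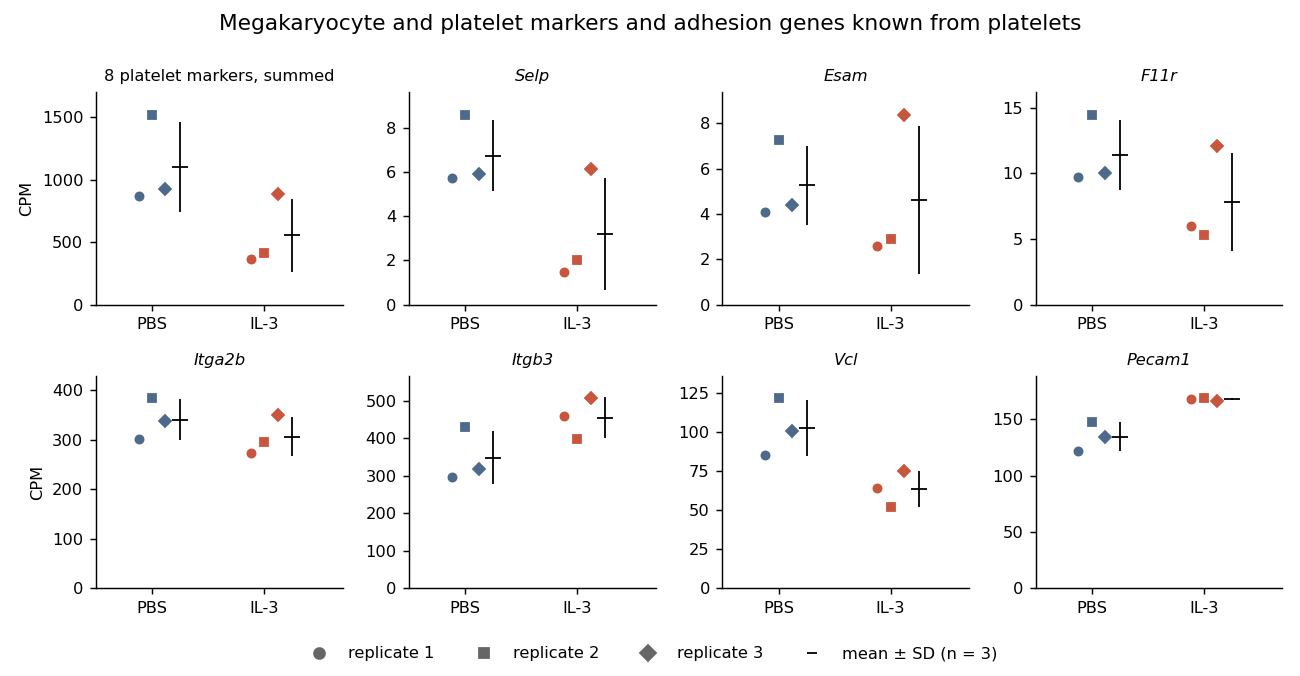
The first panel shows the summed level of 8 megakaryocyte and platelet markers and the others adhesion genes known from platelets, in CPM from 0, for each PBS (blue) and IL-3 (red) library with mean ± SD (n = 3). PBS replicate 2 (square) and IL-3 replicate 3 (diamond) are the highest of their groups for the marker sum, Selp, Esam, F11r, Itga2b, Itgb3 and Vcl, whereas the IL-3 libraries of Pecam1 are nearly equal.

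Of the 6 talin, kindlin and focal adhesion adaptors, 1 rose and 1 fell. Tln1, talin-1, which couples integrin tails to actin and activates the receptors, was at 577, 602 and 603 CPM in PBS and at 768, 831 and 910.0 CPM in IL-3. Each IL-3 library was above each PBS library (log2 fold change 0.49, SE 0.0572, adjusted p = 4.22e-06 by edgeR). Vcl, vinculin, which binds talin and reinforces the link to actin, was at 85.7, 122 and 101 CPM in PBS and at 64.1, 52.1 and 75.1 CPM in IL-3. Both groups were spread but did not overlap (log2 fold change -0.68, SE 0.123, adjusted p = 0.000364). Exons of Creb3 overlap those of Tln1, and exons of Ap3m1 those of Vcl, on the opposite strand. Fermt3, the kindlin of blood cells, ranged from 227 to 259 CPM in PBS and from 216 to 234 CPM in IL-3 and did not pass (adjusted p = 0.138; 0.0435 without PBS replicate 1). Neither Ilk, the integrin-linked kinase (log2 fold change -0.03, adjusted p = 0.753), nor the scaffold gene Pxn, paxillin (log2 fold change -0.15, adjusted p = 0.149), passed the test, although Pxn did without IL-3 replicate 2 (adjusted p = 0.0261). Tln2 stayed at or under 3.03 CPM in each library (adjusted p = 0.954).

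In a wider list of 33 integrin activation and focal adhesion adaptors, 30 could be tested, of which 10 were higher, 7 lower and 13 not called, against the same shares of all genes (18.0% and 20.2%; median log2 fold change -0.05). Skap1, an adaptor of inside-out integrin signalling, rose from 9.71 ± 2.26 to 29.7 ± 5.96 CPM (SD, n = 3, edgeR adjusted p = 1.38e-06). Tes, testin, a focal adhesion LIM protein, rose from 87.7 ± 8.11 to 212 ± 9.88 CPM (SD, n = 3, edgeR adjusted p = 5.33e-10). Vasp, which promotes actin filament growth at adhesions, rose from 262 ± 10.4 to 488 ± 6.65 CPM (SD, n = 3, edgeR adjusted p = 6.97e-10). The adaptors of this list moved in both directions.

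Among 22 further selectins, counter-receptors, matrix ligands and junction molecules, 17 could be tested, with 4 higher, 7 lower and 6 not called, against 18.0% and 20.2% of all genes (median log2 fold change -0.22). Thbs1, thrombospondin-1, a matrix ligand of CD47, fell from 457 ± 19.5 to 144 ± 27.0 CPM (SD, n = 3, edgeR adjusted p = 8.74e-10). Icam4 fell from 5.003 ± 1.16 to 1.604 ± 0.0663 CPM (SD, n = 3, edgeR adjusted p = 0.000101), and Cadm1, a homophilic molecule of mast cells and epithelium, from 5.90 ± 1.40 to 2.71 ± 0.0733 CPM (SD, n = 3, edgeR adjusted p = 0.00111).

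Several of the falling genes are known from macrophages as well, among them Itgb5, Itgam and Itga4. Among the macrophage markers, C1qb, a complement chain, fell by 1.06 on the log2 scale (edgeR adjusted p = 7.85e-11), Cd68, a lysosomal protein, fell by 1.03 (adjusted p = 6.06e-09) and Lyz2 fell by 0.97 (adjusted p = 6.02e-11). The log2 fold change was -1.48 for Itgb5, -0.90 for Itga4 and -0.25 for Itgam, and Itgax and Itgav did not pass the test. Adgre1, the F4/80 antigen, and Ly6c2 rose in the same libraries (adjusted p = 4.93e-05 and 1.57e-06). The part of macrophages in the falls of the adhesion genes was not tested.

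On the per-length scale, on which the 36 genes were ranked, Itgb2 led in PBS with 154 ± 4.72 CPM per kilobase, before Selplg with 127 ± 9.81, Ilk with 108 ± 10.1 and Itgb7 with 102 ± 5.87 (SD, n = 3). Ilk and Itgb7 lay within their spread of each other. The scale takes reads to be spread evenly along the longest coding transcript, which was not checked. Ranks between genes of unlike length are therefore uncertain. In IL-3, Selplg led with 172 ± 2.85 CPM per kilobase, before Itgb2 with 143 ± 4.18. Cd47 moved from rank 9 to rank 5 of the 36 genes, with 52.4 ± 2.18 CPM per kilobase in PBS and 102 ± 0.681 in IL-3, where it equalled Itgb7 within the spread. Itgb5 moved from rank 19 to rank 25, with 10.0 ± 0.683 CPM per kilobase in PBS and 3.58 ± 0.0493 in IL-3. Itga2, the chain used for enrichment, was low on this scale, at 3.28 ± 0.267 CPM per kilobase in PBS and 4.73 ± 0.447 in IL-3, ranks 27 and 23.

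**Figure D5:**
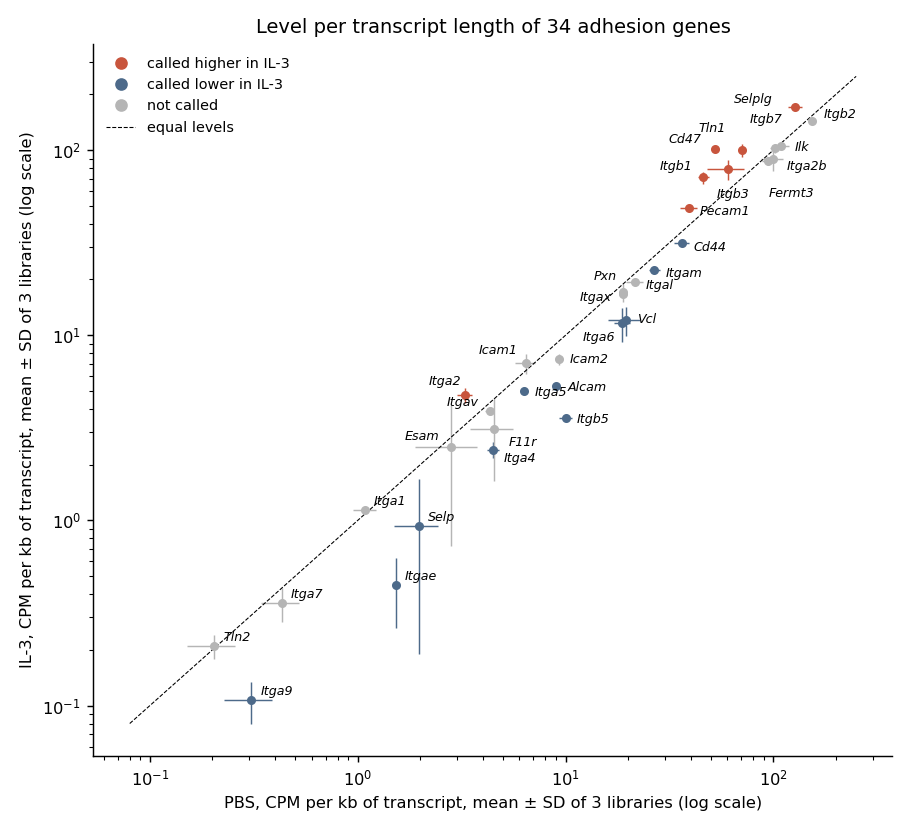
Log-scale axes give the mean level in PBS (x) and in IL-3 (y) as CPM per kilobase of the longest coding transcript, with SD bars from 3 libraries, for the 34 tested adhesion genes, coloured by call. Selplg, Itgb2 and Cd47 lie at the upper right, Cd47 clearly above the dashed line of equal levels, and Itgb5, Itgae and Itga9 lie clearly below it.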

How the data were processed

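BMBA libraries, 3 per stimulation, were analysed from the table of raw counts per gene symbol that the authors deposited. According to the study's methods, reads were trimmed with Cutadapt and mapped with Bowtie2 to GRCm38 reference RNA, whereas the submitters' processing notes list GRCm39 and cutadapt 3.4. No molecular identifiers are described, so 3-count limits cover counting error only. Labels name a column kit for RNA and the methods direct lysis. Whether the 3 cultures came from separate mice is not given, and p-values measure the spread between these libraries.

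Counts were filtered (filterByExpr), scaled by TMM and tested with edgeR 4.0.16 in R 4.3.3 (quasi-likelihood, group only), with Benjamini-Hochberg adjustment over all genes tested and calls at an adjusted p below 0.05. The SE is the absolute log2 fold change over the square root of F. CPM used TMM-scaled library sizes. Transcript lengths, overlaps and shared 50-base words came from GENCODE annotation of GRCm38. The main fit was also run on simulated counts in which few genes changed, equally often up and down. That run does not bear on the choice of scaling. Libraries of a group differed by more than sampling noise (chi-square per degree of freedom at least 2.94). Members and lists were chosen with earlier results of these data known. All members are named. From each other adhesion list up to 4 genes that were called and averaged 5 CPM or more in either group were named by size of change. Some genes that meet this rule are not reported here. Fut7, St3gal6, Itgad and the markers read beside a result were named after their values had been seen. Alternatives were other scalings, filters, tools (DESeq2 1.42.0, limma-voom 3.58.1), thresholds, the replicate number as a block and leaving out libraries.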

Additional observations from a re-analysis of the deposited data

How the results depend on the processing

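None of the 18 called genes changed sign under the 16 alternatives run. Of these, 14 lost the call under none but the test against a fold of 1.5 and the adjusted p threshold of 0.01, and Itgb3, Selp, Cd44 and Pecam1 lost it under others too. Against a fold of 1.5, 1 gene was higher and 5 were lower (4.25% and 5.30% of all genes). Library totals without TMM gave 21 lower genes (30.2% of all genes) and a median of -0.32, with the median of all genes moved by -0.16, and turned Itga1 (-0.10), Itgb7 (-0.16), Icam1 (-0.031) and Tln2 (-0.13), none of them called. In all, 11 uncalled genes were called under some alternative, mostly with library totals. At an adjusted p of 0.01, 6 were higher and 8 lower (13.0% and 14.3% of all genes). DESeq2 called 6 higher and 10 lower (15.9% and 17.2%). Leaving out 1 library at a time gave 6 to 7 higher and 10 to 14 lower genes and a median of -0.17 to -0.14. The uncalled genes that turned then ranged from -0.037 to 0.12 (Itga1), -0.033 to 0.052 (Itgb7), -0.17 to 0.20 (Tln2), -0.10 to 0.037 (Ilk) and -0.93 to 0.15 (Esam). Ilk also turned without both platelet-rich libraries (0.037). Same-numbered libraries did not deviate together (correlations from -0.0224 to -0.00869), and with the replicate block 7 genes were higher and 11 lower (17.0% and 19.5% of all genes) with a median of -0.16, and no call changed. The cause of these differences was not tested. Itga3 and Jam3 had too few counts at this depth to be tested in the filtered fit.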
